A study of Mus musculus with 8 samples.

Results

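Accessibility at 10 genes of early lymphoid development (Flt3, Il7r, Notch1, Dntt, Rag1, Rag2, Ikzf1, Satb1, Ebf1 and Pax5) was examined by ATAC-seq in bone marrow progenitors of female mice. ATAC-seq reads open chromatin by inserting sequencing adapters with the transposase Tn5. The members were all peaks that overlapped the body of one of these genes or the 20 kb on either side of it in the mm10 GENCODE annotation. There were 566 such peaks of 501728 in the 8 peak lists, and merging peaks that overlapped by 1 bp or more gave 135 regions of 123260. The windows of Rag1 and Rag2 overlap, so a few regions belong to both.

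The 8 libraries formed 4 groups of 2. LSK+ cells (lineage-negative, Sca-1 and c-Kit positive) hold hematopoietic stem cells and multipotent progenitors, whereas LSK− cells, which are c-Kit positive but lack Sca-1 and lineage markers, hold the myeloid and erythroid progenitors. The WT and XistΔ/Δ mice were 4.5 months old and of the strain 129Sv4/Jae x B6. In XistΔ/Δ mice the conditional Xist 2lox allele was deleted on both X chromosomes by Vav-iCre, a transgene in which the Vav1 promoter drives Cre throughout the blood lineages, so the deletion was not specific to either sorted population. Whether the WT mice carried the 2lox allele or Cre is not given in the sources used here. A TSS-proximal peak at Xist was listed in all 4 WT libraries (highest full-list percentile 51.2 to 80.6) and in 1 of the 4 XistΔ/Δ libraries, LSK− XistΔ/Δ replicate 2 (26.9). About 10000 cells entered each reaction. The sort removed cells carrying CD11b, Gr-1, CD3ε, B220, CD8a, CD4 or TER-119, and hence most B, T and mature myeloid cells. Common lymphoid progenitors, which carry little Sca-1, are not defined by either gate.

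Lymphoid priming is the early, partial opening or transcription of lymphoid genes in multipotent progenitors before commitment. Flt3, Il7r and Notch1 encode receptors that guide this step, the Ikaros factor Ikzf1 and the chromatin organizer Satb1 act upstream of it, and Ebf1 and Pax5 set the B cell program. Dntt (terminal transferase) and the Rag1 and Rag2 recombinase act during assembly of the antigen receptor genes.

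A peak's strength was taken as its −log10 p, and ranked within its own list as a percentile with 100 for the strongest peak. Lists held between 29829 and 91590 peaks, and the libraries' genome-wide background pileup, which rises with depth, ran from 0.482 fragments (LSK+ WT replicate 2) to 3.87 fragments (LSK− XistΔ/Δ replicate 1). Values set between libraries were therefore percentiles among the 29829 strongest peaks of each list (equal-length percentile), with 0 where a region or promoter had no peak among them. A 0 means only that no peak reached that rank. Of the 10 promoters checked for stem and multipotent cells, 8 could be tested, and the median difference between LSK+ and LSK− was 3.01 percentile points. Of 12 promoters for myeloid and erythroid progenitors, 11 could be tested, with a median of −6.6. The means were higher in LSK+ at 4 and lower at 4 of the first list, and higher at 3 and lower at 8 of the second. No promoter of either list was called by limma. An unadjusted p under 0.05 was found for 1 of the 8, Meis1 (higher in LSK+), and for 5 of the 11, beside 7.68% of all promoters tested. Of these 5, Car1, Epor and Gfi1b were lower in LSK+, but Csf1r and Prtn3, also markers of the LSK− progenitors, were higher in LSK+. Car1, an erythroid carbonic anhydrase, stood at 0 in all 4 LSK+ libraries and between 71.7 and 90.8 in LSK− (limma adjusted p = 0.181, and 0.00534 with the replicate number as a block), so that it entered the test through LSK− alone. Csf1r, the receptor for macrophage colony-stimulating factor, stood at 80.6 to 90.5 in LSK+ and 36.6 to 74.8 in LSK− (limma adjusted p = 0.552). The defining LSK+ gene Ly6a, which encodes Sca-1, had no TSS-proximal peak among the strongest 29829 in any library. Of 10 markers of mature cells, 8 were at 0 in every library, and Itgam, which encodes CD11b, lay between 0 and 36.8.

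The number of peaks at the 10 loci followed the length of the list. LSK+ WT replicates 1 and 2 had 71 and 35 peaks there, LSK+ XistΔ/Δ had 90 and 71, LSK− WT had 78 and 49, and LSK− XistΔ/Δ had 97 and 75. These were between 0.106% and 0.13% of each list. Among the 29829 strongest peaks the counts were 37, 35, 38 and 36 in the 4 LSK+ libraries and 30, 36, 30 and 36 in the 4 LSK− libraries. XistΔ/Δ libraries, which had more raw peaks than the same-numbered WT libraries, then differed from them by at most 1 peak.

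**Figure D1:**
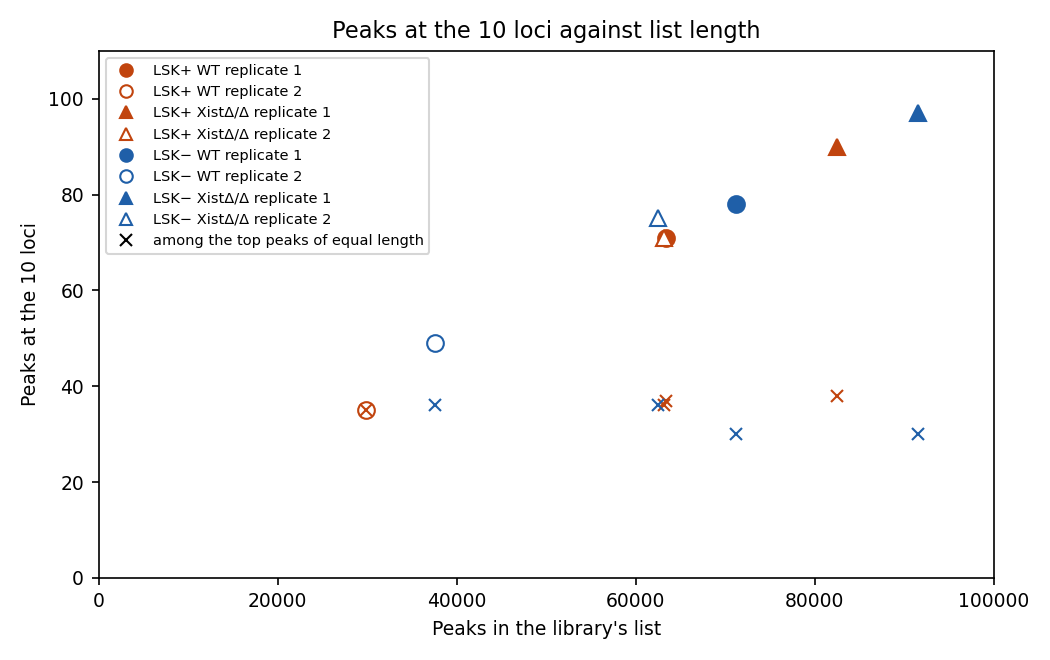
Peaks at the 10 lymphoid loci (y axis, count) against the number of peaks in each library's list (x axis), 1 symbol per library. Filled and open symbols run from 35 to 97 with list length, and the crosses, which count peaks among the 29829 strongest of each list, stay between 30 and 38.

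Of the 135 regions, 23 were TSS-proximal (summit within 3 kb of a TSS of the member gene), 19 lay at the TSS of another gene and 93 were distal, 71 of these in an intron. Of all regions, 26 (19.3%) were listed in all 8 libraries and 32 (23.7%) in 1, against 17.3% and 25.3% of all regions in the series. A total of 80 regions had no peak among the strongest in any library. Per 100 kb of window, the mean number of such strong peaks was highest at Flt3 (7.06), Dntt (6.76), Notch1 (5.7) and Ikzf1 (5.37), and the median protein-coding gene had 2.39. Rag1 stood at 4.39 and Rag2 at 2.35, both windows holding the promoter of a neighbouring gene. Satb1 (1.37), Ebf1 (0.871), Pax5 (0.665) and Il7r (0.582) lay below the median gene.

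Whether the lymphoid promoters differed between LSK+ and LSK− cells was tested with limma across 13153 protein-coding genes with a strong TSS-proximal peak in at least 2 libraries. Of the 10 genes, 7 entered this test. Flt3, Il7r, Notch1, Dntt, Ikzf1 and Satb1 had a higher mean in LSK+, and Ebf1 a lower one. The median difference of the 7 was 20.8 percentile points, beside −1.1 over all genes tested. It was 3.5 with peaks ranked by fold enrichment (7 members tested) and 7.11 with all deposited peaks (10 tested). With a TSS distance of 1 kb it was 17.5 (6 tested), and without 1 library 12.1 to 23.5 (12.1 without LSK− XistΔ/Δ replicate 1). None of the 7 was called at an adjusted p under 0.05, and neither was any other gene in either direction (0% called). At an unadjusted p under 0.05 stood 1 of the 7, that of Il7r (higher in LSK+), beside 7.68% of all genes (3.85% higher and 3.82% lower). The Il7r difference was 28.4 in XistΔ/Δ and 0 in WT, where every library stood at 0. That promoter entered the test through XistΔ/Δ libraries alone. With the replicate number as a block, 1.15% of all genes were called higher and 0.76% lower in LSK+, and again none of the 7. The libraries of the 2 cell types overlapped at all 7 promoters (without overlap among all genes, 3.08% higher and 4.34% lower). Labels do not state whether the 2 replicates of a group came from separate mice. The study calls them biological replicates, and the p-values measure the spread between these libraries. As the cells were measured in bulk, a lower share of open cells and a lower accessibility per cell cannot be told apart.

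**Figure D2:**
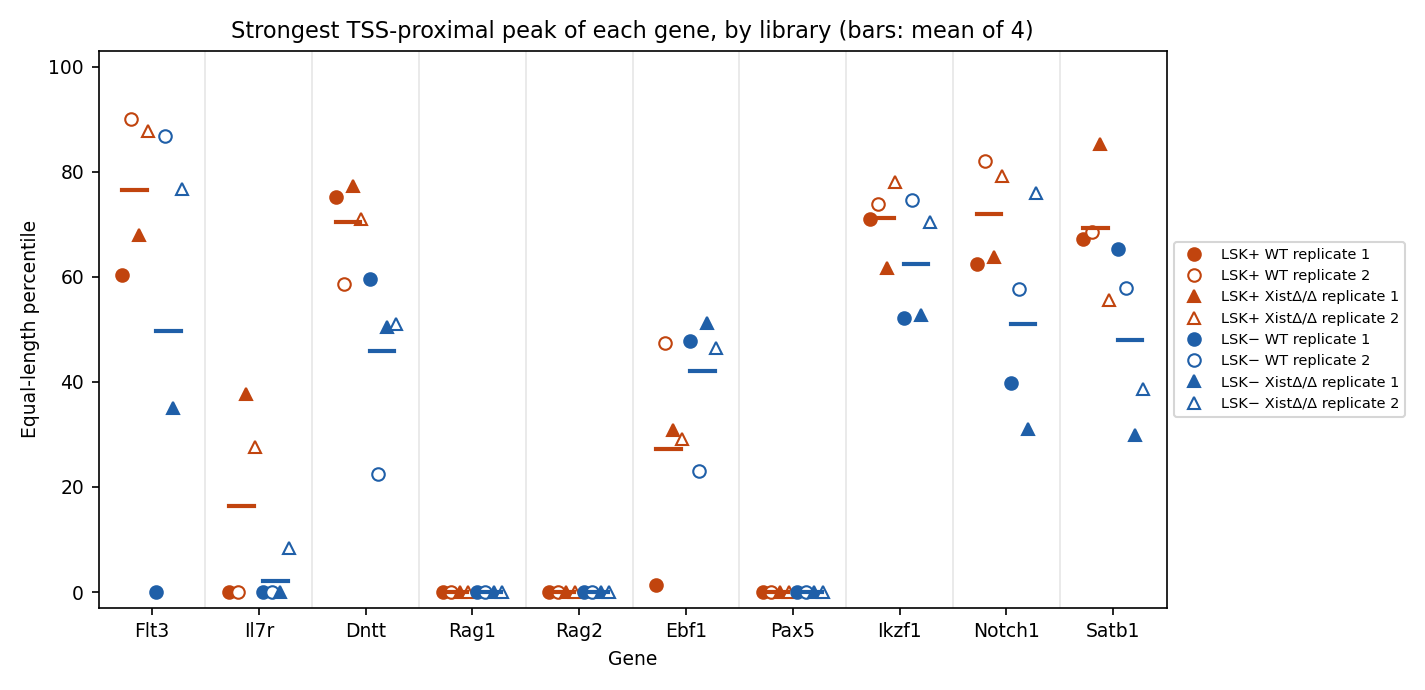
Equal-length percentile (y axis, 0 to 100) of the strongest TSS-proximal peak of each gene (x axis) in each of the 8 libraries, with bars at the mean of the 4 libraries of each cell type. Rag1, Rag2 and Pax5 lie at 0 throughout, and the LSK+ and LSK− libraries of the other 7 genes overlap or meet at 0.

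The receptor genes differed from each other in how open their promoters were. The Flt3 promoter had equal-length percentiles of 60.3 and 90.1 for LSK+ WT, 68.0 and 87.7 for LSK+ XistΔ/Δ, 0 and 86.7 for LSK− WT, and 35.1 and 76.7 for LSK− XistΔ/Δ, replicates 1 and 2 in that order here and throughout. Replicate 2 was above replicate 1 in every group, and the cell types overlapped. The means were 76.5 ± 14.7 and 49.6 ± 39.9 (SD, n = 4 each), with a difference of 26.9 (SE 20.4, limma adjusted p = 0.836), and −3.01 with peaks ranked by fold enrichment. In the full list of LSK− WT replicate 1, the peak at the Flt3 TSS was present, at percentile 42.4. A TSS-proximal peak 2.21 kb upstream stood at 56.1 in that list. On leaving out 1 library the difference was smallest, 5.22, when LSK− WT replicate 1 was dropped, and 48.6, the largest, when its partner replicate 2 was.

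Away from the promoter, a pair of Flt3 introns held regions at which all LSK+ libraries exceeded all LSK− libraries. The region in intron 9 (chr5:147366142-147366770, 33.9 kb from the TSS) was the strongest distal region of the locus. Its equal-length percentiles were 91.3 and 73.7 for LSK+ WT, 96.5 and 81.4 for LSK+ XistΔ/Δ, 63.6 and 56.4 for LSK− WT, and 61.6 and 64.5 for LSK− XistΔ/Δ. The lowest LSK+ library thus lay above the highest LSK− library. The difference was 24.2 (SE 5.9), with a limma adjusted p of 0.0624, and 0.0146 with the replicate number as a block, and it ran from 9.22 to 48.4 over 16 alternatives (limma adjusted p 0.0146 to 0.653). The second region (chr5:147340715-147341650, summit in intron 20, 59.3 kb from the TSS) separated further, with 74.3 and 61.6 for LSK+ WT, 83.7 and 66.5 for LSK+ XistΔ/Δ, 12.9 and 46.4 for LSK− WT, and 21.4 and 21.3 for LSK− XistΔ/Δ. Here the difference was 46.0 (SE 11.1, limma adjusted p = 0.0609, and 0.0265 with the block), and 17.5 to 63.0 over the alternatives (limma adjusted p 0.0265 to 0.319). Both regions were listed in all 8 libraries, so they were weaker in LSK−, not missing. A further Flt3 region, in intron 1 at 7.59 kb from the TSS (chr5:147392402-147393174), did not separate, with LSK+ libraries from 47.0 to 84.3 and LSK− libraries from 48.1 to 62.1. The 300 bases around the summits of the intron 9 and intron 20 regions are printed to show what sequence these LSK+-weighted elements hold, on the forward strand of GRCm38.p6 (mm10). The first spans chr5:147366413-147366712 and the second chr5:147341025-147341324, of which 112 bases lie in Flt3 exons. Capitals mark matches, on either strand, to any of 6 motifs of blood regulators. They were the core motif of PU.1 and other ETS factors (GAGGAA), the motif bound by RUNX factors (TGTGGT), that of the erythroid and stem cell GATA factors (AGATAA), an E-box that is its own reverse complement (CAGCTG), a second E-box form (CAGGTG) and the Ikaros motif (TGGGAA). No motif is part of another.
Flt3 intron 9: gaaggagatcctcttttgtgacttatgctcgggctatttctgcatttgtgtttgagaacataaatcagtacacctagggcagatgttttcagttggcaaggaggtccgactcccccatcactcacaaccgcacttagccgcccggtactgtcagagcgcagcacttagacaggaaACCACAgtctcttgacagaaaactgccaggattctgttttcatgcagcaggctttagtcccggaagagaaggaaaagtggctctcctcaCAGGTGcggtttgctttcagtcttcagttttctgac
Flt3 intron 20: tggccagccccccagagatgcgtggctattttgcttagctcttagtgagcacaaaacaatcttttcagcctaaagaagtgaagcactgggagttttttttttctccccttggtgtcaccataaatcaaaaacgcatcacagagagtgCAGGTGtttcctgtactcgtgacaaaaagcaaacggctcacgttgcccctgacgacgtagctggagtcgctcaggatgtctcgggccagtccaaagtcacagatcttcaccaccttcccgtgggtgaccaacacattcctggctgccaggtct
Intron 9 holds 1 RUNX match and 1 CAGGTG E-box, and intron 20 holds 1 CAGGTG E-box.

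At Il7r, whose product is the interleukin-7 receptor alpha chain, little was open in either population. The gene window of 24.4 kb and its flanks held 3 regions. The promoter region (chr15:9529662-9530168) was listed in 6 of 8 libraries. It reached the strongest peaks in LSK+ XistΔ/Δ (37.6 and 27.6) and in LSK− XistΔ/Δ replicate 2 (8.34), and stood at 0 in the 4 WT libraries and in LSK− XistΔ/Δ replicate 1. All XistΔ/Δ values were thus at or above the WT values, without separating from them. Within their own full lists, LSK+ WT replicate 1 and LSK− WT replicate 1 had the peak at percentiles 51.2 and 50.8, below 77.4 and 65.8 for LSK+ XistΔ/Δ and 57.6 and 56.3 for LSK− XistΔ/Δ. The 2 libraries without it, the WT replicates 2, had the 2 shortest lists, 29829 and 37578 peaks. The part of list length in this pattern was not tested. The genotype difference was 18.4 (SE 5.86, limma unadjusted p = 0.0153, adjusted p = 1.0, exact permutation p = 0.167), and the genotype effect was 28.4 (SE 11.7) larger in LSK+ than in LSK− (limma unadjusted p = 0.0438, adjusted p = 1.0). The promoter entered the test only through XistΔ/Δ libraries, the side on which it was high, so these p-values are those of a promoter selected for such a difference. The 300 bases around the start as given by RefSeq (chr15:9529827-9530126, GRCm38.p6, printed on the gene's minus strand) are shown because this was the member promoter with the lowest genotype p. They hold 1 RUNX match, as do 16.9% of the 27025 promoters in the same table, and none of the other motifs.
Il7r promoter: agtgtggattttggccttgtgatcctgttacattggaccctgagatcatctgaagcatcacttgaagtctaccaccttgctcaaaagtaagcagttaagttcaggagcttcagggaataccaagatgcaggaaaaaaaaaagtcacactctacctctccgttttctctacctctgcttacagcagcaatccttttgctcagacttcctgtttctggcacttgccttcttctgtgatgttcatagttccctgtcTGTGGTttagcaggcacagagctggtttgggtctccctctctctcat

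Notch1, the receptor that directs T lineage choice, had an open promoter in all 8 libraries. It stood at 62.5 and 82.1 for LSK+ WT, 63.7 and 79.2 for LSK+ XistΔ/Δ, 39.7 and 57.6 for LSK− WT, and 31.1 and 75.9 for LSK− XistΔ/Δ. The LSK− values lay lower on average but overlapped those of LSK+ (difference 20.8, SE 12.9, limma adjusted p = 0.8), and the difference was 9.56 to 32.0 without 1 library. A region 9.7 kb upstream of that promoter (chr2:26513121-26514047) separated the cell types. Its percentiles were 95.5 and 76.6 for LSK+ WT, 94.6 and 88.1 for LSK+ XistΔ/Δ, 70.2 and 74.9 for LSK− WT, and 56.0 and 67.5 for LSK− XistΔ/Δ. Every LSK+ library was above every LSK− library, though LSK+ WT replicate 2 exceeded LSK− WT replicate 2 by little. The difference was 21.6 (SE 5.36), with a limma adjusted p of 0.0654, and 0.0261 with the block, and it ran from 7.3 to 43.1 over 16 alternatives (limma adjusted p 0.0261 to 0.535). In the full GENCODE annotation this region lies 3141 bp inside a longer Notch1 transcript, which is outside the basic set used for TSSs. Its 300 central bases (chr2:26513372-26513671, forward strand) hold matches to 4 of the 6 motifs, among them RUNX and both E-boxes.
Notch1 upstream: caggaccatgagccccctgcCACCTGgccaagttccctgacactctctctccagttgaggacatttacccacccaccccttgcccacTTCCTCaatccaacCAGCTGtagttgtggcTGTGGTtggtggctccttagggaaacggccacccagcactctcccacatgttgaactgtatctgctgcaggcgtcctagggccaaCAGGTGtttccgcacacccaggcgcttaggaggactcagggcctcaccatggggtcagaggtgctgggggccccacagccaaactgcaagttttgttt
The strongest distal Notch1 region, in intron 4 (chr2:26483080-26483901), ranged from 71.6 to 94.3 in LSK+ and from 71.5 to 89.5 in LSK−, with overlap (difference 2.37, SE 5.23). At the 3′ side of the window, the shared promoter of Sec16a and 0610009E02Rik (chr2:26444942-26446093) was lower in LSK+ without overlap, 84.9 to 92.1 against 92.9 to 95.3 (difference −5.68, SE 2.4, limma adjusted p = 0.203).

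Of the genes of antigen receptor assembly, Dntt was open past its start in every library and Rag1 and Rag2 were nearly closed. Within 1 kb of the Dntt TSS the only region was listed in 1 library, LSK+ XistΔ/Δ replicate 1, at full-list percentile 5.76. The strongest TSS-proximal Dntt region lay in intron 1, 1905 bp past the TSS (chr19:41030930-41031431). Its percentiles were 75.1 and 58.6 for LSK+ WT, 77.2 and 70.9 for LSK+ XistΔ/Δ, 59.5 and 22.4 for LSK− WT, and 50.5 and 51.1 for LSK− XistΔ/Δ. Only LSK+ WT replicate 2 and LSK− WT replicate 1 crossed, and the difference was 24.6 (SE 11.6, limma adjusted p = 0.719 among promoters). The upstream Dntt region at 6.88 kb (chr19:41021931-41022833) ran higher in LSK+ without overlap, with 75.7 and 29.9 for WT and 89.0 and 51.6 for XistΔ/Δ, beside 18 and 23.3 for LSK− WT and 22.9 and 0 for LSK− XistΔ/Δ. The difference was 45.5 (SE 15.1), with a limma adjusted p of 0.125, and 0.0368 with the block, and it ran from 23.9 to 56.9 over 16 alternatives (limma adjusted p 0.0368 to 0.474). Its central bases (chr19:41022250-41022549, forward strand) hold matches to 5 of the 6 motifs, among them both E-box forms.
Dntt upstream: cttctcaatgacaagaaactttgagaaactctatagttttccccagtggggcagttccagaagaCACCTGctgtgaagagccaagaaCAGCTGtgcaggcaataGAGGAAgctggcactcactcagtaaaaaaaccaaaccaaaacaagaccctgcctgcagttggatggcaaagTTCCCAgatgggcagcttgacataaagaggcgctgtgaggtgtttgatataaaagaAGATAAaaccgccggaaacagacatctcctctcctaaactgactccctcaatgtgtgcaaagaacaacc
The strongest distal region of Dntt, downstream of the gene (chr19:41071370-41071978), averaged 43.8 ± 30.7 in LSK+ and 43.5 ± 23.9 in LSK− (SD, n = 4 each). A weak region 2.58 kb upstream of Dntt (chr19:41026610-41026885) was listed in all 4 LSK− libraries, at full-list percentiles from 0.515 to 34.2, and in no LSK+ library.

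Neither Rag gene had a TSS-proximal peak among the strongest in any library. In the full lists, Rag1 had one in 4 libraries at percentiles up to 31.0, and Rag2 in 5 libraries at percentiles up to 27.5. The strong signal of the locus was the promoter of the neighbouring gene B230118H07Rik, in an intron of Rag2 (chr2:101628514-101629301), at 85.4 to 95.7 in LSK+ and 83.0 to 96.8 in LSK−. Upstream of Rag1, at 16.0 kb (chr2:101665223-101665739), a distal region stood at 12.8 and 0 for LSK+ WT, 27.7 and 16.2 for LSK+ XistΔ/Δ, 43.6 and 19.2 for LSK− WT, and 42.4 and 27.4 for LSK− XistΔ/Δ. It was higher in LSK− on average, with overlap (difference −19.0, SE 10.9, limma adjusted p = 0.337).

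Among the transcription factor genes, Ikzf1 had the most regions (26), and 9 of them were listed only in LSK− libraries and 0 only in LSK+ libraries. Over all 135 regions these counts were 29 and 31, and in the whole series 26.5% of regions were listed only in LSK− and 18.2% only in LSK+ libraries. The LSK− list was the longer one in 3 of the 4 pairs of libraries with the same genotype and replicate number. Its promoter was open throughout, from 61.6 to 78.0 in LSK+ and from 52.1 to 74.6 in LSK− (difference 8.62, SE 9.23, limma adjusted p = 0.892). The region in intron 3, 42.9 kb from the TSS (chr11:11729024-11729526), was listed in no LSK+ library at all. Its values were 62.7 and 58.5 for LSK− WT and 69.1 and 47.1 for LSK− XistΔ/Δ. The difference was −59.3 (SE 10.7) with a limma adjusted p of 0.0407, and 0.0132 with the block. It entered the test through its strong peaks in LSK− alone, the side on which it was high. It was the only region of the 10 loci called without the block. The call was lost on leaving out any 1 library other than LSK− XistΔ/Δ replicate 2 (limma adjusted p 0.0547 to 0.124), and in 6 of the 8 other alternatives tried (limma adjusted p 0.054 to 0.485). It stayed lower in LSK+ in all of these, with a difference from −79.0 to −10.0, the last with peaks ranked by fold enrichment. A neighbouring Ikzf1 region less than 1 kb further on (chr11:11729990-11730598) was listed in all 8 libraries, from 31.9 to 41.6 in LSK+ and from 0 to 34.6 in LSK−. The region in intron 4, at 56.4 kb (chr11:11742398-11743011), was likewise at 0 in the 4 LSK+ libraries, and at 21.9 and 44.4 for LSK− WT and 59.8 and 19.3 for LSK− XistΔ/Δ. It was listed in 2 LSK+ libraries below the strongest peaks, and its difference of −36.4 (SE 11.4) had a limma adjusted p of 0.111, and 0.0666 with the block. It too entered the test through LSK− alone. The strongest distal Ikzf1 region, 102 kb from the TSS and past the gene's end (chr11:11788436-11789131), was shared by both populations, at 73.3 to 96.3 in LSK+ and 67.7 to 94.4 in LSK−. Higher on average in LSK+ was a region in intron 8, at 79.9 kb (chr11:11766198-11766582). It stood at 34.7 to 64.0 in LSK+ and 0 to 35.4 in LSK− (difference 31.4, SE 13.3, limma adjusted p = 0.205). A region 18.2 kb upstream of Ikzf1 (chr11:11667269-11668155) was at 0 to 26.9 in LSK+ and 0 in LSK−. Its difference was 14.5 (SE 5.11, limma adjusted p = 0.141), and it entered the test through LSK+ alone. The Ikzf1 locus thus held strong elements common to both cell types and uncalled regions higher in LSK+. These lay beside the LSK−-weighted ones of introns 3 and 4. The 300 central bases of those introns' regions, chr11:11729235-11729534 and chr11:11742701-11743000 on the forward strand, are shown because the first is the called region. The intron 3 element holds 2 GATA matches and no other motif, and the intron 4 element holds 1 RUNX and 1 Ikaros match.
Ikzf1 intron 3: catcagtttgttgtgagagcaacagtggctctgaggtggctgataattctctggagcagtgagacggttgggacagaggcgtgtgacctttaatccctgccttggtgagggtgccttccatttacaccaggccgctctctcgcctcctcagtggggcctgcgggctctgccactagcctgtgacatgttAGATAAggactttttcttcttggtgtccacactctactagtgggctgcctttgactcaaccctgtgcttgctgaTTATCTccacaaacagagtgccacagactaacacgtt
Ikzf1 intron 4: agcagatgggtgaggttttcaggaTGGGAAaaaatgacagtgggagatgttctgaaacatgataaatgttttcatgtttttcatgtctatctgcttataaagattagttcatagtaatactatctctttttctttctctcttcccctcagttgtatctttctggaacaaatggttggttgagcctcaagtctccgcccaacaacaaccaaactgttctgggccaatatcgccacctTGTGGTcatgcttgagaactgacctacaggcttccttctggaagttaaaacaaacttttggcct

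**Figure D3:**
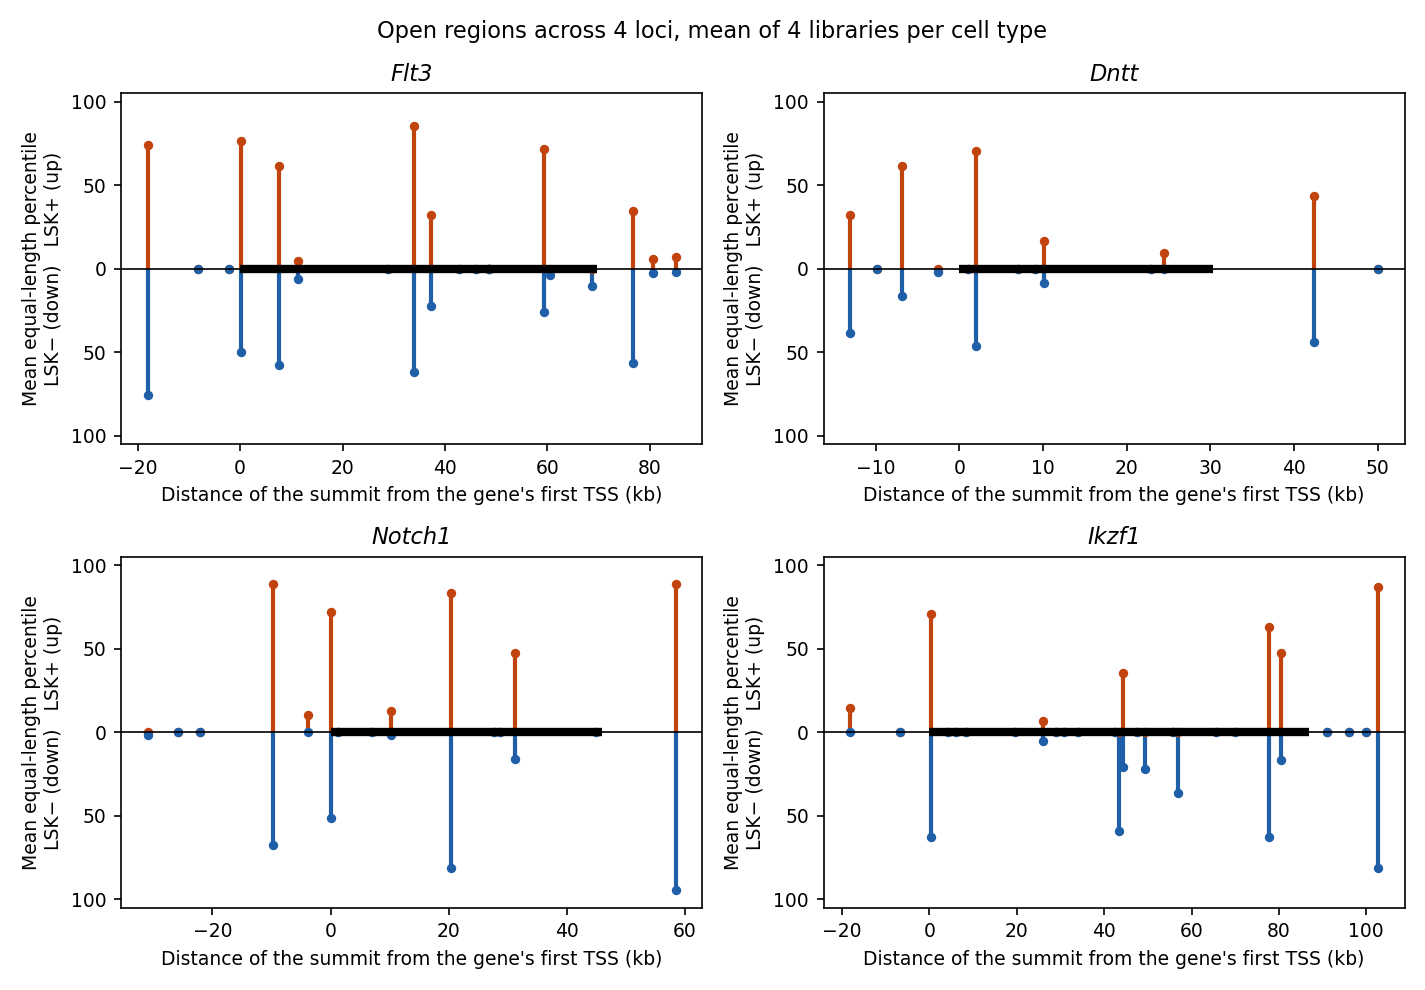
Mean equal-length percentile of every region in LSK+ (up) and LSK− (down), n = 4 libraries each, against the distance of its summit from the first TSS of the gene in kb, with a black bar for the gene body. Flt3, Dntt and Notch1 each show a distal region taller in LSK+, and Ikzf1 shows a pair in its introns with a mean of 0 in LSK+ and 59.3 and 36.4 in LSK−. A further Ikzf1 intron 3 region has means of 0 in LSK+ and 21.7 in LSK−. An Ikzf1 intron 8 region is taller in LSK+ (47.8 against 16.4).

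Satb1 had 7 annotated TSSs and 2 TSS-proximal regions that entered the test. Taking the stronger of them in each library, the promoter stood at 67.1 and 68.6 for LSK+ WT, 85.2 and 55.6 for LSK+ XistΔ/Δ, 65.2 and 57.8 for LSK− WT, and 29.8 and 38.6 for LSK− XistΔ/Δ. Both LSK− XistΔ/Δ libraries were the lowest of the 8. The difference between cell types was 21.3 (SE 10.5, limma adjusted p = 0.736), and the exact permutation p within genotypes was 0.0556, the smallest that the 36 assignments can give. The genotype effect was 29.9 (SE 21.0) higher in LSK+ than in LSK− (limma adjusted p = 1.0). No distal Satb1 region entered the test.

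The B lineage factors Ebf1 and Pax5 were weakly marked for their length. The Ebf1 promoter (chr11:44616855-44617344) stood at 1.28 and 47.4 for LSK+ WT, 30.9 and 29.1 for LSK+ XistΔ/Δ, 47.7 and 23.1 for LSK− WT, and 51.2 and 46.5 for LSK− XistΔ/Δ. It was the only member promoter with a lower mean in LSK+ (difference −14.9, SE 13.3, limma adjusted p = 0.864), with −26.5 to −3.41 on leaving out 1 library, the latter without LSK+ WT replicate 1. Its strongest distal region, in intron 8 (chr11:44897096-44897887), was at 10.2 and 24.2 for LSK+ WT and 6.27 and 0 for LSK+ XistΔ/Δ, and at 64.4 and 16.0 for LSK− WT and 54.2 and 41.9 for LSK− XistΔ/Δ. Only LSK− WT replicate 2 fell within the LSK+ values (difference −34.0, SE 13.5, limma adjusted p = 0.18). The region 6.22 kb upstream of Ebf1 (chr11:44610786-44611696) ran the other way. It stood at 33.0 and 49.4 for LSK+ WT and 37.0 and 15.1 for LSK+ XistΔ/Δ. In LSK− it was at 0 except in XistΔ/Δ replicate 2 (18.3), so the cell types overlapped (difference 29.1, SE 9.98, limma adjusted p = 0.135). Along the Ebf1 gene, which is 391 kb long, 13 of 23 regions were listed only in LSK+ libraries and 3 only in LSK− libraries, but 16 of the 23 had no peak among the strongest anywhere. In the whole series 18.2% of regions were listed only in LSK+ and 26.5% only in LSK− libraries. The Ebf1 window held 17 peaks in LSK+ XistΔ/Δ replicate 1, the longest LSK+ list, and 3 in LSK+ WT replicate 2, the shortest. The part of list length in these counts was not tested.

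No annotated Pax5 promoter of the basic set had a peak among the strongest in any library, and in the full lists there was one in 3 libraries, at percentiles up to 15.8. A strong region in Pax5 intron 1 (chr4:44704188-44704825) was classed with the TSS of the transcript 5730488B01Rik. In the full annotation its summit lies 545 bp from a further Pax5 TSS. It ranged from 47.9 to 82.4 in LSK+ and from 69.9 to 86.2 in LSK− (difference −6.2, SE 7.56). The strongest distal Pax5 region, in intron 5 (chr4:44672322-44673154), was at 25.3 and 29.5 for LSK+ WT and 7.12 and 0 for LSK+ XistΔ/Δ, and at 0 in the 4 LSK− libraries (difference 15.5, SE 4.76, limma adjusted p = 0.106). It was listed in all 8 libraries but entered the test through LSK+ alone.

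Over all loci, 47 of the 135 regions had a strong peak in at least 2 libraries and were tested between LSK+ and LSK−, beside 41782 regions of the whole series. Of the 47, 5 had strong peaks only in LSK+ and 3 only in LSK− libraries (10.6% and 6.38%, beside 13.1% and 15.0% of all regions tested), so the filter had selected them for a difference. Of the 47, 1 was called lower in LSK+ and 0 higher, against a background of 1.91% lower and 2.06% higher. With the replicate number as a block 4 were called higher and 1 lower, against 6.92% and 5.24%. At an unadjusted p under 0.05 there were 11 higher and 4 lower, against 13.6% and 10.1%. Regions whose libraries did not overlap numbered 4 higher and 3 lower, against 9.24% and 7.72%. As shares of the 47, these were 2.13% for the single call, 8.51% and 2.13% with the block, 23.4% and 8.51% by unadjusted p, and 8.51% and 6.38% without overlap. The shares without overlap and that of the call lay near the background, so they do not set the lymphoid loci apart from other open regions. The median difference over the 47 was 6.85, beside −0.124 over all regions tested, and 3.75 with peaks ranked by fold enrichment (46 members tested) and 1.07 with all deposited peaks, when more members entered. Of the 135 regions, 2 were listed in all 4 LSK− and no LSK+ library (background 2.12%) and 0 in the reverse arrangement (background 0.586%). In the 2 against 2 comparisons within WT or within XistΔ/Δ no region of the series passed a limma adjusted p of 0.05 (0% called), and 6 and 10 of the 47 had an unadjusted p under 0.05, beside 15.3% and 13.9% of all regions tested. The called Ikzf1 region differed by −60.6 in WT (limma adjusted p = 0.175) and by −58.1 in XistΔ/Δ (limma adjusted p = 0.208).

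**Figure D4:**
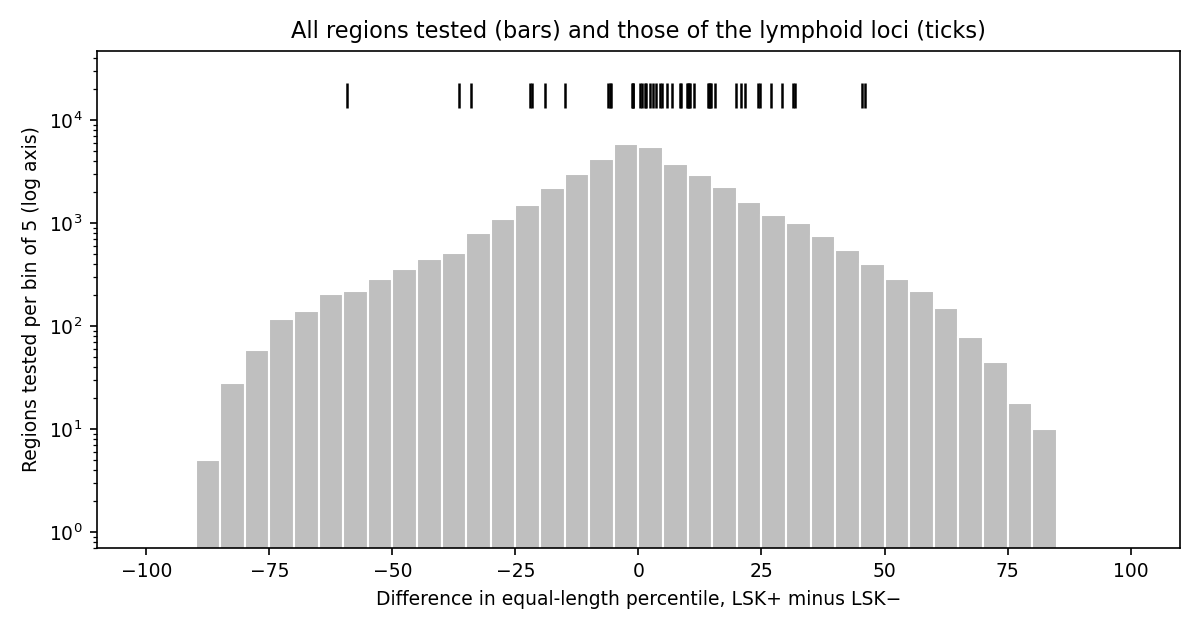
Number of regions tested (log y axis) by the difference in equal-length percentile between LSK+ and LSK− (x axis, bins of 5), for all 41782 regions, with a tick for each of the 47 regions of the lymphoid loci. The ticks run from −59.3 (Ikzf1 intron 3) to 46.0 (Flt3 intron 20), within the range of the bars.

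Among all 41782 regions, the 6 motifs were found in 37.4% (GAGGAA), 29.5% (TGTGGT), 17.6% (AGATAA), 21.0% (CAGCTG), 18.2% (CAGGTG) and 22.8% (TGGGAA) of the 300-base windows. In the 47 member regions they were found in 24, 10, 7, 12, 14 and 13 windows. Of the 6 distal sequences printed for Flt3, Notch1, Dntt and Ikzf1, CAGGTG was in 4, all LSK+-weighted, and AGATAA in 2. These matches describe letters only.

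Xist deletion was compared within the same fits. No member promoter and no member region was called for genotype (limma, 0% called in each direction over all promoters and over all regions), with the replicate block or without it. Unadjusted p-values under 0.05 were found for 1 of the 7 promoters, that of Il7r (background 0.821%), and for 4 of the 47 regions (background 2.31%). These 4, named after their values were seen, were the Il7r promoter (higher in XistΔ/Δ) and a region 3504 bp upstream of Rag1, the Pax5 intron 5 region and a Dntt region in intron 9 (all lower in XistΔ/Δ). Each of them was at 0 in 5 of the 8 libraries or more, 3 of them entered the test through 1 genotype alone (all but the Pax5 region), and the adjusted p was 1.0 for each. Of the 7 promoters 0 separated the genotypes without overlap (background 0.281% higher and 0.433% lower in XistΔ/Δ). Only 1 region separated the genotypes without overlap, and it was lower in XistΔ/Δ (background 0.254% lower and 0.323% higher). This was a Dntt region 13.1 kb upstream (chr19:41016015-41016845), with 43.7 and 41.3 for LSK+ WT, 23.2 and 21.4 for LSK+ XistΔ/Δ, 43.5 and 42.0 for LSK− WT, and 33.6 and 34.0 for LSK− XistΔ/Δ. Replicates lay closer together than the genotypes in both cell types, and the limma difference was −14.6 (SE 10.0, adjusted p = 1.0), in a fit that draws each region's spread in part from regions of like rank. In full-list percentiles, which grow with list length, its genotype difference had the opposite sign, 9.23. The genotype effect did not differ between LSK+ and LSK− by an adjusted p under 0.05 for any member promoter or region (0% called over all), and 3 of the 47 regions and 1 of the 7 promoters had an unadjusted p under 0.05 (background 2.0% and 0.456%). The promoter was that of Il7r, and the regions were the Il7r promoter, Dntt intron 9 and Pax5 intron 5 ones. Each had entered the test through 1 genotype or 1 cell type alone, so the filter had selected them for a difference.

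**Figure D5:**
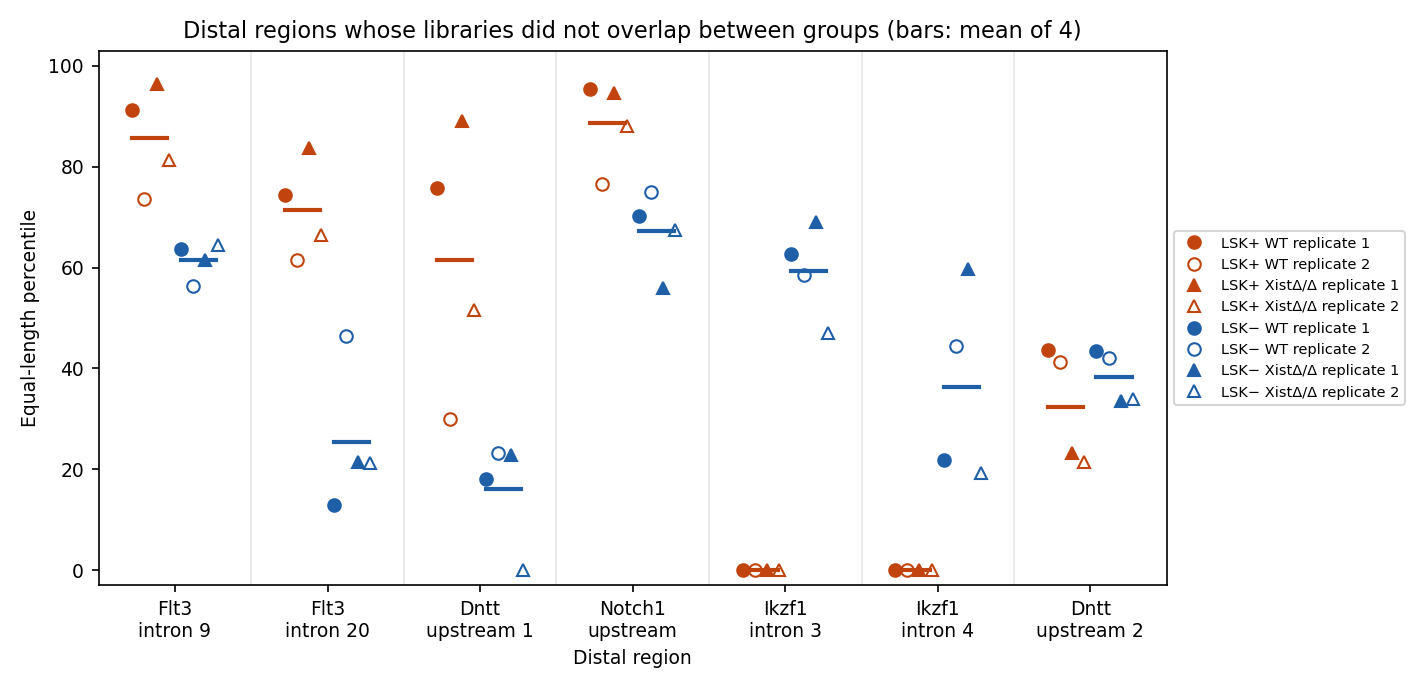
Equal-length percentile (y axis) in each of the 8 libraries for the distal regions whose libraries did not overlap between groups, with bars at the mean of the 4 libraries of each cell type. The first 4 regions are higher in LSK+, the Ikzf1 pair is at 0 in LSK+, and the Dntt region 13.1 kb upstream (upstream 2) splits by genotype, 41.3 to 43.7 in WT and 21.4 to 34.0 in XistΔ/Δ.

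A wider list of 32 lymphoid genes was read in the same promoter test. Of these, 22 entered it and 0 were called, with 12 means higher and 10 lower in LSK+ and a median difference of 1.02. At an unadjusted limma p under 0.05 stood 3 (13.6%), all higher in LSK+. They were Mef2c, Jak3 and Runx3, named after their values were seen. Over all promoters tested the share was 7.68% (3.85% higher and 3.82% lower). Libraries did not overlap for 2 genes higher in LSK+ and 1 lower (background 3.08% and 4.34%). The higher ones, named after their values were seen, were Mef2c, a factor of early lymphoid specification, and Jak3, the kinase that signals for interleukin-7 and related receptors. Mef2c stood at 96.8 to 100.0 in LSK+ and 86.1 to 92.0 in LSK− (limma adjusted p = 0.181, and 0.00534 with the block). Jak3 stood at 13.1 to 68.7 in LSK+ and at 0 in the 4 LSK− libraries (limma adjusted p = 0.355, and 0.0411 with the block), and entered the test through LSK+ alone. The gene lower in LSK+ was Tcf12, an E protein, at 25.0 to 57.6 against 58.3 to 78.2 (limma adjusted p = 0.797). None of the 32 was called for genotype by limma, with or without adjustment.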

How the data were processed

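ATAC-seq libraries of 4 groups of sorted bone marrow cells (2 per group) were analysed from the deposited peak lists. Per the labels and the study's methods, the authors trimmed reads with Trim Galore, aligned them to mm10 with Bowtie2 2.3.5.1, used SAMtools 1.10, removed mitochondrial reads and those with a mapping quality under 30, and ran MACS2 2.2.7.1 per library, in paired-end mode, with a q-value of 0.01. Each deposited peak has a score, a fold enrichment (ratio) over the local background, a −log10 p-value, a −log10 q-value and a summit. The submitters' processing notes also name DiffBind, whose output was not used here. Read counts were not used, and depth was read from the lists as the most common background pileup implied by fold and p-value. Replicates were not pooled.

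Peaks on chromosomes 1 to 19 and X were ranked by −log10 p. All lists end within the reference chromosomes of GRCm38.p6. TSSs and introns came from the GENCODE M21 basic set. Peaks with the summit within 3 kb of a TSS were TSS-proximal, as in the study. Regions were peaks of the 8 lists merged at 1 bp of overlap. The equal-length percentile was analysed with limma 3.58.1 (trend, R 4.3.3) on 4 group means over all 8 libraries, for promoters or regions with a strong peak in at least 2 libraries, with Benjamini-Hochberg adjustment over all features and a threshold of 0.05. Single values also had a two-sided exact permutation test within strata (36 assignments, smallest p 0.0556). The fit was tested on simulated data. Replicate numbers mark the sequencing platform and run, per the study's supplement, and deviations of same-numbered libraries from their group means correlated at 0.424 to 0.675 for promoters and 0.164 to 0.521 for regions over 6 pairs of groups, so values with the replicate block are given where they change a call. No 2 libraries held the same list.

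Regions named were, at each locus, the strongest TSS-proximal and distal ones, those called and those whose libraries did not overlap. Regions at the TSS of another gene are named by that gene. Others are named as chosen after their values were seen where this applies. The same holds for the Flt3 intron 1 region and the Ikzf1 region beside intron 3's called one. It also holds for the weak Dntt region, the upstream Ikzf1 and Ebf1 regions, the Ikzf1 intron 8 region and the marker genes given with values. The 10 genes, the lymphoid gene list, the marker lists and the tests were chosen with earlier results of these data known. Alternatives were another ranking, list length, q-value minimum, library filter, TSS distance, overlap, the block and leaving out each library. Motif matches used 300 bases around a summit. The values of 1 mature cell marker are not reported here.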

Additional observations from a re-analysis of the deposited data

How the results depend on the processing

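The count of member regions called between LSK+ and LSK− (1) was not stable. It was 0 with peaks ranked by fold enrichment, with all deposited peaks, with a top list of 14914 peaks, with a −log10 q of at least 5, without the library filter and with peaks covering at least 50% of a region, 4 with a strong peak required in at least 4 libraries, and 5 with the replicate block. Leaving out 1 library gave 0 to 3, with 3 only without LSK− XistΔ/Δ replicate 2 and 0 without any of the other 7. The called Ikzf1 intron 3 region stayed lower in LSK+ under all 16 alternatives (−79.0 to −10.0) and past the threshold in 3, and its adjusted p without 1 library ran from 0.0372 to 0.124. Apart from the region count and the calls named in the report, the replicate block changed no call of a member. The counts for promoters, genotype and genotype by cell type were 0 under every alternative. Of the 566 member peaks, 278 were among the strongest of their lists.

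Signs of uncalled differences turned at 5 features. Ranking by fold enrichment gave −3.01 at the Flt3 promoter and its region, −3.71 at Notch1 intron 4 and −0.875 at the Dntt downstream region. All deposited peaks gave −2.06 at Notch1 intron 4, −7.19 at the Dntt downstream region and, for genotype, 9.23 at the Dntt region 13.1 kb upstream. Without 1 library, Notch1 intron 4 reached −1.37 to 6.11 (−1.0 and −0.374 among the turned ones), the region downstream of Ikzf1 −0.347 to 11.9 (also −0.326) and the Dntt downstream region −14.8 to 15.4 (also −13.5, −5.36 and −4.21). The cause was not tested.

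Values rest on peak lists, so a region under the caller's threshold has no value, and depth differs between replicate numbers.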
